A study of Mus musculus with 12 samples.

Results

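The genes described here carry peptides to the cell surface on MHC class I and make those peptides with the immunoproteasome. The list held 10 mouse genes: the heavy chains H2-K1 and H2-D1, the light chain B2m, the peptide pump Tap1 and Tap2, the loading protein Tapbp (tapasin), the immunoproteasome subunits Psmb8, Psmb9 and Psmb10, and the class I transactivator Nlrc5. They were taken by name from the probe sets whose platform annotation gives exactly 1 symbol, with the brightest probe set per gene. This left 9 of 10 genes among 22180 measured, since the row listed for H2-D1 also names H2-Q2 and was not used. Only Tapbp had a further probe set of its own.

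The RNA came from the colon of mice of 4 genotypes, 3 arrays each and 12 in all, on Affymetrix whole-transcript arrays. The groups were wild type (WT, IL10+/+ STING+/+), mice lacking interleukin-10 (IL10KO, IL10-/- STING+/+), mice lacking the DNA-sensing adaptor STING (SKO, IL10+/+ STING-/-) and mice lacking both (DKO, IL10-/- STING-/-). Strain, age, treatment and the design of the knockout alleles are not given in the labels used here. Each array has a number of its own in its title, but no label says what the numbers count, and p-values refer to the spread between these arrays. The design text names the colon of IL10KO and DKO as the comparison of interest. Interleukin-10 is an anti-inflammatory cytokine, and its loss in mice is used as a model of spontaneous colitis.

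In every nucleated cell the proteasome cuts cytosolic proteins into peptides, TAP pumps them into the endoplasmic reticulum, and tapasin holds the empty heavy chain with beta-2-microglobulin at the pump until a fitting peptide is bound. CD8 T cells read the finished complex at the surface. Interferons, above all interferon-gamma, raise most genes of the route together and exchange the catalytic subunits of the standard proteasome for PSMB8, PSMB9 and PSMB10. NLRC5 is the transactivator that acts on class I promoters, itself induced by interferon, and class I levels in the gut are high in leukocytes as well as inducible in epithelium.

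Some libraries stood apart, which bears on all comparisons with WT. Sting1 itself read 7.51 and 6.40 in WT replicates 1 and 2 but 4.56 in WT replicate 3. That library, labelled WT, lay close to the 4.13 to 4.40 of the knockout arrays (SKO and DKO), and the IL10KO arrays read 6.87 to 8.09. Pancreatic acinar markers, 11 measured of 13, had a mean signal of 8.51 in WT replicate 1 and 11.34 in WT replicate 2, against 4.78 to 5.84 in the other 10 arrays. Squamous markers, 11 of 12, averaged 7.38 and 7.30 in IL10KO replicates 2 and 3, 5.21 in IL10KO replicate 1, 5.51 in DKO replicate 3 and at most 4.32 elsewhere. Epithelial markers, 11 of 11, averaged 10.57 to 10.78 in IL10KO and 10.98 to 11.21 in the other genotypes. In the test of IL10KO against WT described below, 3 of them passed, Car1, Aqp8 and Slc26a3, all lower in IL10KO, and 8 did not, where 8.14% of all genes passed. Epithelial signal was thus high in all 12 arrays, but this mean does not by itself settle which tissue each piece held. Since these are pieces of tissue, fewer cells of a type and less RNA per cell cannot be told apart.

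Promoters were looked at because 8 of the 9 measured genes varied together over the arrays, as shown further on. Stretches of 250 bases before the annotated start, RefSeq on GRCm38.p6, were found for 8 of the 10 genes, with Tap2 and Nlrc5 unmatched. Both strands were searched for the interferon-stimulated response element (GAAA, any 2 bases, GAAA), the STAT site GAS (TTCNNNGAA), the NF-kB site by its consensus, and the Y box (CCAAT). Tap1 and Psmb9 lie head to head with 225 bases between their starts, so their windows are largely the same DNA read from opposite strands. The sequences below are those of a heavy chain, the light chain, the pump and an immunosubunit, with tapasin as the gene that varied apart from the rest, and capitals mark matches to the first 3 motifs.
H2-K1, chr17:34000348-34000597, minus strand, is the first of these.
H2-K1: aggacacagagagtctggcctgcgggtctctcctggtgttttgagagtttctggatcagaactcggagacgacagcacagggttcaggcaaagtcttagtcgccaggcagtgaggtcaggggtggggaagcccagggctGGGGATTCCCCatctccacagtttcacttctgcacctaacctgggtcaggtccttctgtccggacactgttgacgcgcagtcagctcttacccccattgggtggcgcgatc
B2m, chr2:122147437-122147686, plus strand, follows.
B2m: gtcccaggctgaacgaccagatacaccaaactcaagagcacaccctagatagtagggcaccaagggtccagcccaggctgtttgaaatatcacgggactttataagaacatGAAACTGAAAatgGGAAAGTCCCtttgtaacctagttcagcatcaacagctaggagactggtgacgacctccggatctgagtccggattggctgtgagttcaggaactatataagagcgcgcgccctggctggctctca
Tap1, chr17:34187306-34187555, plus strand, holds the stretch shared with Psmb9.
Tap1: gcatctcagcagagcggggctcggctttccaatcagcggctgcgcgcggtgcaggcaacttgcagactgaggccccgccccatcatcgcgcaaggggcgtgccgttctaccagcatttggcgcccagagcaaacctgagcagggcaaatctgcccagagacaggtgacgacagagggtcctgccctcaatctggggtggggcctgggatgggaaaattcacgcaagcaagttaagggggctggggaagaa
Psmb8, chr17:34197945-34198194, plus strand, is the immunosubunit.
Psmb8: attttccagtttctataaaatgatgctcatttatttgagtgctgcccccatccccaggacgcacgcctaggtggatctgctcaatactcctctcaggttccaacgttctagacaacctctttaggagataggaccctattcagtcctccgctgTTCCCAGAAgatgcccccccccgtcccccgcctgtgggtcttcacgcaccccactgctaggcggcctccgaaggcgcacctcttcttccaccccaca
Tapbp, chr17:33919228-33919477, plus strand, is the last.
Tapbp: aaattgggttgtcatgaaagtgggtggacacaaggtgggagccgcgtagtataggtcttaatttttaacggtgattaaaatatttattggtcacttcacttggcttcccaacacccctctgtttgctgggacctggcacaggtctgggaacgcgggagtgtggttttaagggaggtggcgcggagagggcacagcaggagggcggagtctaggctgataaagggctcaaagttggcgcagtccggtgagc

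An NF-kB match stood in the H2-K1, H2-D1 and B2m windows, 3 of 8, against 3.75% of 27025 genes. In H2-K1 the palindrome GGGGATTCCCC matched as 2 overlapping sites, 111 to 101 bases before the start. B2m had the only interferon response match of the 8 windows, GAAACTGAAA, 139 to 130 bases before its start and next to its NF-kB match, where 3.04% of all genes had one. Psmb8 had the only GAS match, TTCCCAGAA, 97 to 89 bases before the start, against 7.18% of all genes. The Y box stood in 6 of 8 windows and in 34.5% of all genes, and the matches of Tap1 and Psmb9 are the same bases read from opposite strands. Tap1, Tapbp, Psmb9 and Psmb10 had no match to the first 3 motifs in these windows, and each match is a run of letters, not a measured site.

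The heavy and light chain genes spanned less than 1 log2 unit over the arrays. H2-K1 (probe set 17343710), the classical heavy chain measured here, had log2 signals of 11.01, 10.31 and 10.08 in WT replicates 1 to 3, 10.66, 10.68 and 10.55 in IL10KO, 10.20 and 10.39 in SKO replicates 1 and 3, with replicate 2 the lowest of a group mean of 10.23 ± 0.15 (SD, n = 3), and 10.54, 10.48 and 10.62 in DKO. All IL10KO and DKO arrays lay above all SKO arrays, while the WT arrays spanned the whole range. B2m (17375373), the light chain shared by all class I molecules, read 12.87, 12.43 and 12.27 in WT, 12.62, 12.64 and 12.55 in IL10KO, 12.22, 12.10 and 12.31 in SKO and 12.64, 12.29 and 12.51 in DKO. For B2m the DKO and SKO arrays overlapped, by a single DKO array. H2 genes are highly polymorphic between strains and near-identical to each other, so the H2-K1 value may hold signal of related genes, and a difference in strain background cannot be told apart from genotype.

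The peptide pump genes varied much more. Tap1 (17336432), which forms the transporter with TAP2, read 9.73, 8.13 and 7.15 in WT, 9.24, 8.90 and 8.99 in IL10KO, 7.35, 7.03 and 7.88 in SKO and 8.17, 8.67 and 8.5 in DKO. The 3 genotypes other than WT did not overlap in Tap1, in the order IL10KO, DKO, SKO, and WT alone spanned from above IL10KO into SKO. Tap2 (17336458) read 7.52, 6.78 and 6.14 in WT, 6.86, 6.76 and 6.53 in IL10KO, 6.29, 6.17 and 6.55 in SKO and 6.68, 6.71 and 6.73 in DKO. Its DKO arrays lay above SKO and within IL10KO.

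Tapbp (17336228), which bridges the pump and the heavy chain, read 9.79, 9.25 and 9.26 in WT, 9, 9.34 and 9.09 in IL10KO, 9.15, 9.32 and 9.30 in SKO and 9.33, 9.27 and 9.31 in DKO. Apart from WT replicate 1 its 11 arrays lay between 9 and 9.34, and its lowest array was an IL10KO one. The other Tapbp probe set, with a mean signal of 5.38 against 9.28, lay between 5.08 and 5.72 in all arrays, with 5.42 in WT replicate 1.

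The immunoproteasome subunits followed the pattern of Tap1. Psmb8 (17336446), which replaces PSMB5 and gives the chymotrypsin-like activity, read 9.49, 8.35 and 7.56 in WT, 9.55, 9.05 and 9.54 in IL10KO, 7.76, 7.38 and 7.99 in SKO and 8.26, 8.82 and 9.13 in DKO. Psmb9 (17343789), which replaces PSMB6, read 8.92, 7.16 and 6.77 in WT, 8.51, 7.85 and 8.49 in IL10KO, 6.69, 6.71 and 6.97 in SKO and 7.46, 7.77 and 7.95 in DKO. Psmb10 (17512554), which replaces PSMB7, read 10.04, 9.51 and 9.25 in WT, 10.32 and 9.86 in IL10KO replicates 1 and 2 with the third array between them (group mean 10.09 ± 0.23, SD, n = 3), 9.20, 8.99 and 9.44 in SKO and 9.56, 9.85 and 9.93 in DKO. In all 3 subunits the SKO arrays lay below those of both IL10KO and DKO, and a DKO array reached into the IL10KO range.

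Nlrc5 (17504023), the transactivator, read 6.17, 4.93 and 4.67 in WT, 5.66, 5.61 and 5.83 in IL10KO, 4.56, 4.77 and 4.71 in SKO and 4.94, 5.73 and 5.18 in DKO. WT replicate 1 was again the highest of the 12 arrays, and DKO replicate 2 lay within IL10KO where the other DKO arrays lay between SKO and IL10KO.

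**Figure D1:**
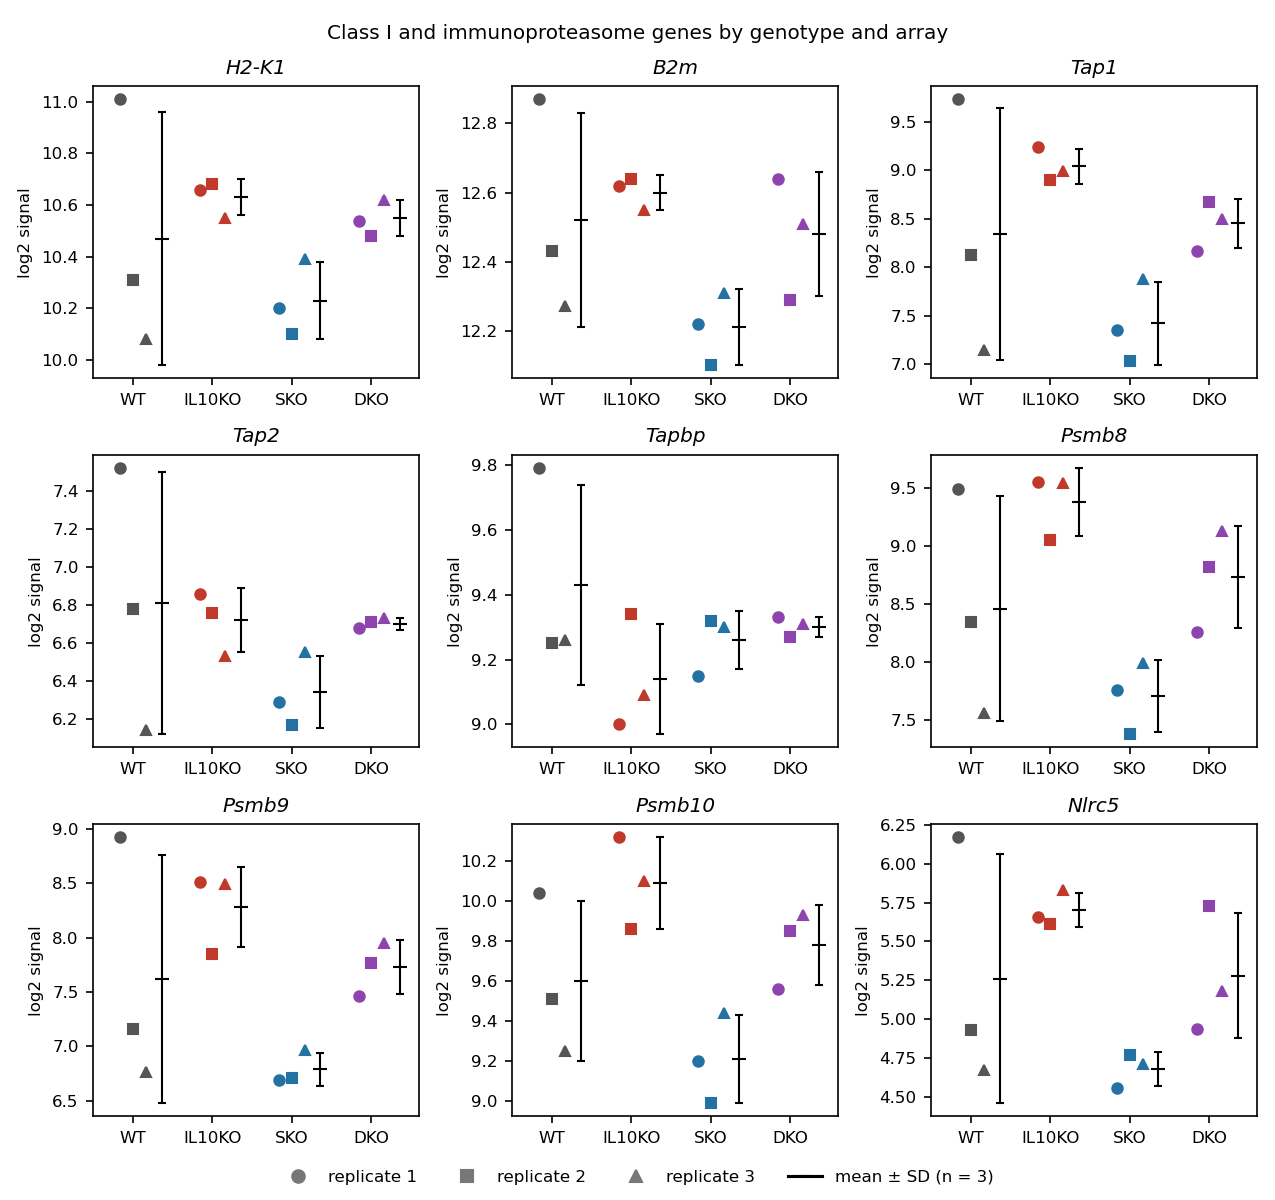
Log2 signal (vertical axes, each with its own scale that does not start at 0) of the 9 measured genes in each array, by genotype on the horizontal axes, with marker shapes for replicates and black bars for the mean ± SD of 3 arrays. WT replicate 1 (circles) is the highest of the 3 WT arrays in all 9 panels and the SKO arrays lie below the IL10KO arrays in 7.

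By genotype mean the order was IL10KO, DKO, WT, SKO for H2-K1, Tap1, Psmb8, Psmb9, Psmb10 and Nlrc5. Psmb8 averaged 9.38 ± 0.29 (SD, n = 3) in IL10KO, 8.73 ± 0.44 in DKO, 8.46 ± 0.97 in WT and 7.71 ± 0.31 in SKO. Tap1 averaged 9.04 ± 0.18, 8.45 ± 0.25, 8.34 ± 1.3 and 7.42 ± 0.43 in the same order. The neighbours DKO and WT were closer than the WT spread in both genes. B2m had WT above DKO (12.52 and 12.48), and for Tap2 (6.81) and Tapbp (9.43) WT was the highest of the 4 means. The arrays of IL10KO all lay above those of SKO in 7 of the 9 genes, where this held for 10.3% of all genes. These genotypes differ in both targeted genes, and no test was made of this pair.

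The WT arrays differed among themselves more than those of any other genotype in each of the 9 genes. The SD within WT was 1.3 for Tap1, 1.14 for Psmb9, 0.97 for Psmb8 and 0.80 for Nlrc5, against 0.03 to 0.44 in the other genotypes over all 9 genes. Between 91.1% (B2m and Tapbp) and 99.7% (Tap1) of all measured genes had a smaller SD within WT. WT replicate 1 was the highest WT array in 9 of 9 genes, against 32.1% of all genes, and the highest of the 12 arrays in 7 of 9, against 5.34% of all genes. In the other 2, Psmb8 and Psmb10, an IL10KO array was highest.

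Markers of several blood-derived cell types were also highest in replicate 1 among the WT arrays. Neutrophil markers were level there, with means of 4.64, 4.54 and 4.58 in WT replicates 1 to 3. Over 10 pan-leukocyte genes, all measured, the mean signal was 7.15 in WT replicate 1 against 6.31 and 6.27 in the other WT arrays, 6.65 to 7.29 in IL10KO, 6.20 to 6.40 in SKO and 6.36 to 6.63 in DKO. T and NK cell markers, 11 of 13 measured, averaged 5.79, 4.91 and 4.60 in WT replicates 1 to 3, 5.65 to 6 in IL10KO, 4.71 to 4.99 in SKO and 5.17 to 5.34 in DKO. B and plasma cell markers, 7 of 8, averaged 7.27 in WT replicate 1, the highest of all arrays, and 6.18 and 6.15 in the other WT arrays. They averaged 6.60 to 6.95 in IL10KO, 5.93 to 6.51 in SKO and 6.25 to 7.01 in DKO. Macrophage and dendritic cell markers, 11 of 12, averaged 6.99, 6.34 and 6.61 in WT, with replicate 3 above replicate 2. Their means were 6.51 to 7.23 in IL10KO, 6.44 to 6.71 in SKO and 6.60 to 6.79 in DKO. Within IL10KO the mean over the 9 genes was 9.16, 8.97 and 9.07 in replicates 1 to 3. The T and NK cell mean was likewise lowest in replicate 2, at 5.83, 5.65 and 6 in the same order. The pan-leukocyte (6.65), B and plasma cell (6.60) and macrophage and dendritic cell (6.51) means were lowest in replicate 1. The part of leukocyte content in the results was not tested.

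Of the 9 genes, 8 varied as a block over the arrays. Pearson's r of each gene with the mean of the other measured members, over the 12 arrays, was 0.98 for Tap1, 0.97 for H2-K1, 0.95 for Psmb9, 0.90 for Psmb8, 0.89 for Tap2 and Nlrc5, 0.88 for B2m and 0.86 for Psmb10. For Tapbp it was 0.29. The closest pair was Psmb8 with Psmb10, on different chromosomes, at 0.98. Psmb8 with Psmb9, Tap1 with Psmb8 and Tap1 with Psmb9, the pair that shares its intergenic DNA, followed at 0.96. These values are descriptions over arrays that share genotype within groups. The size of the variation differed, with a range over the arrays of 2.70 for Tap1, 2.22 for Psmb9, 2.17 for Psmb8, 1.61 for Nlrc5, 1.37 for Tap2, 1.33 for Psmb10, 0.94 for H2-K1, 0.79 for Tapbp and 0.77 for B2m.

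The 5 genes outside the list whose pattern was most like the mean of the 9 were H2-DMa (r = 0.984 over 12 arrays), H2-Eb1 (0.976), Parp9 (0.961), H2-Ab1 (0.959) and Gm12250 (0.949). H2-DMa, H2-Eb1 and H2-Ab1 belong to MHC class II presentation, which shows peptides to CD4 T cells, Parp9 is an ADP-ribosyltransferase family member induced by interferon, and Gm12250 encodes the interferon-induced GTPase IRGB10. Gm12250 read 7.96, 5.31 and 3.91 in WT, 7.12 to 7.35 in IL10KO, 4.45 to 5.31 in SKO and 6.37 to 6.99 in DKO. H2-Ab1 read 12.30, 11.41 and 10.19 in WT, 11.48 to 11.66 in IL10KO, 9.91 to 10.62 in SKO and 11.12 to 11.38 in DKO. In both genes the DKO arrays lay between SKO and IL10KO without overlap. Since the 5 genes were picked for their likeness to the 9 over these same arrays, a similar order of genotypes follows in part from the choice.

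**Figure D2:**
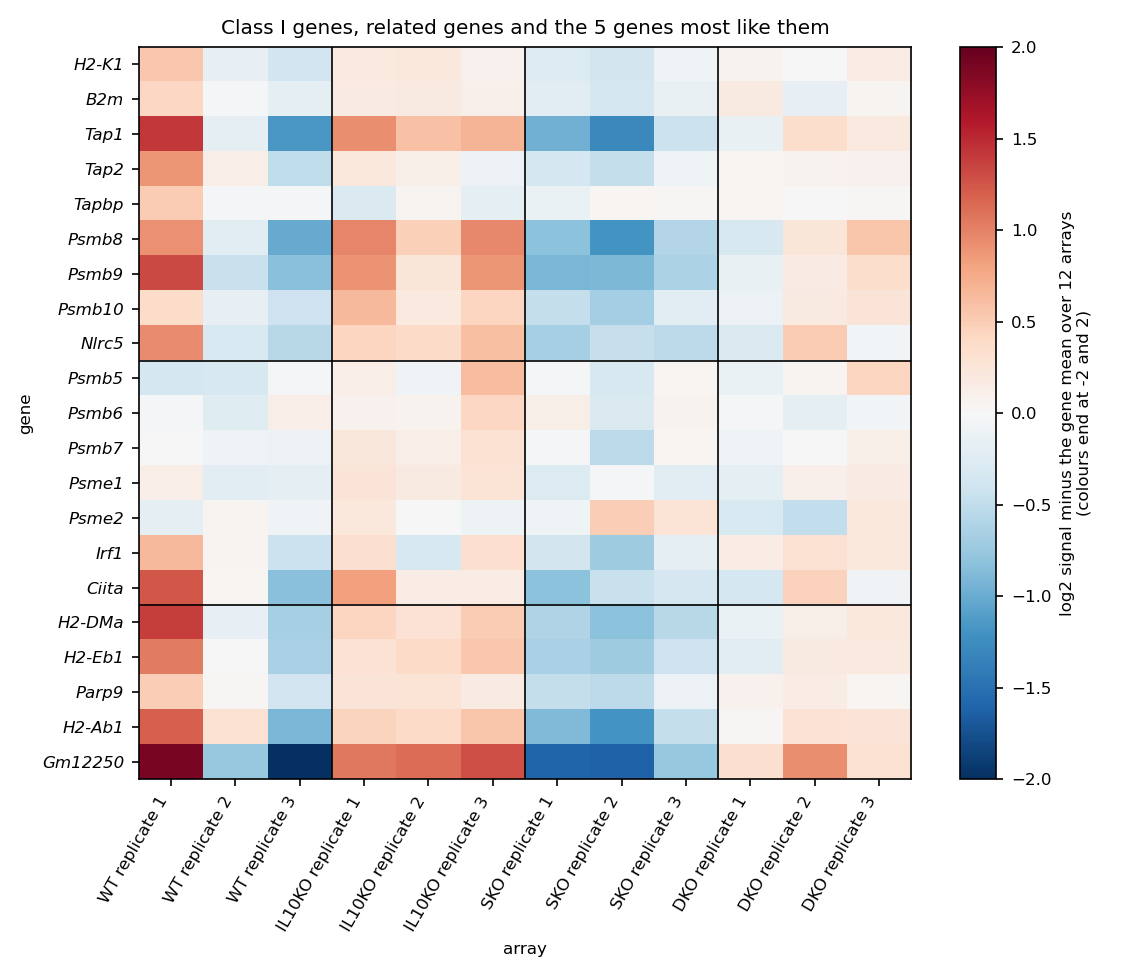
Deviation of each gene's log2 signal from its mean over 12 arrays (colour, ending at -2 and 2) for the 9 measured genes (top rows), 7 related genes (middle) and the 5 genes most like them (bottom), with arrays in columns by genotype. WT replicate 1 is above the mean in all 9 top rows and WT replicate 3 below it in all 9, with Tapbp close to 0, while the proteasome subunits Psmb5, Psmb6 and Psmb7 show little of this pattern.

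IL10KO against WT asks what the loss of interleukin-10 changed in mice with STING. None of the 9 genes passed limma's moderated test (Benjamini-Hochberg adjusted p under 0.05 over all genes), where 8.14% of all genes did, and 2 of 9 had an unadjusted p under 0.05, against 26.2% of all genes. The largest differences were those of Psmb8, 0.92 ± 0.37 (SE) with a 95% interval of 0.11 to 1.72 (limma adjusted p = 0.141), Tap1, 0.71 ± 0.45, and Psmb9, 0.67 ± 0.40. Psmb10 differed by 0.49 ± 0.20 (limma adjusted p = 0.144) and Nlrc5 by 0.44 ± 0.30, while H2-K1 (0.17), B2m (0.08), Tap2 (-0.10) and Tapbp (-0.29) lay closer to 0. The median over the 9 genes was 0.44, beside 0.03 over all genes, and 7 of 9 differences were above 0, against 53.6% of all genes. In 0 of 9 genes did the IL10KO and WT arrays not overlap, against 30% of all genes.

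The count changed without WT replicate 1. Leaving out that array, 4 of 9 genes passed limma's test, all higher in IL10KO, where 4.48% of all genes passed, and the median was 0.71. Tap1 rose by 1.40 ± 0.29 (limma adjusted p = 0.018), Psmb8 by 1.43 ± 0.29 (0.0171), Psmb9 by 1.32 ± 0.23 (0.00699) and Nlrc5 by 0.90 ± 0.21 (0.0285), with Psmb10 at 0.71 ± 0.19 (0.0559). Without the library labelled WT replicate 3, whose Sting1 signal goes against its label, none passed, the median was 0.12 and Psmb8 stood at 0.47 and Tap1 at 0.12. Without WT replicate 2 none passed either, with a median of 0.28. The share over all genes is not given for the omissions of WT replicates 2 and 3. Over all single omissions, 783 to 3070 of 22180 genes passed in this comparison. With both WT arrays of high acinar signal left out, the only WT array was replicate 3, whose Sting1 signal lies beside the knockout arrays, and it was assumed to vary like the other groups. Against that 1 library, Tap1 (1.89), Psmb8 (1.82) and Psmb9 (1.51) were higher (limma adjusted p = 0.0135, 0.0268 and 0.0284), and 1.05% of all genes passed.

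The comparison of DKO with IL10KO, which the design text names, asks what the loss of STING changed in mice without interleukin-10. Again 0 of 9 genes passed limma's test, and 0 had an unadjusted p under 0.05, against 5.79% and 24.4% of all genes. The spread used here includes that of WT, and with DKO and IL10KO fitted alone 3 of 9, Tap1, Psmb8 and Psmb9, had an unadjusted p under 0.05, against 20.5% of all genes. Without WT replicate 1 these and Nlrc5 did, 4 of 9 against 23.2%. None of the 9 passed after adjustment in either fit, where 2.2% and 4.94% of all genes passed, with the smallest limma adjusted p at 0.114 (Tap1) and 0.127 (Psmb9). The difference of DKO from IL10KO was -0.65 ± 0.37 for Psmb8 (interval -1.45 to 0.16, limma adjusted p = 0.298), -0.59 ± 0.45 for Tap1 (-1.57 to 0.38), -0.56 ± 0.40 for Psmb9, -0.42 ± 0.30 for Nlrc5 and -0.31 ± 0.20 for Psmb10. H2-K1 (-0.09), B2m (-0.13) and Tap2 (-0.02) were near 0 and Tapbp was 0.16. The median was -0.31, beside -0.04 over all genes, and 1 of 9 differences was above 0, against 45.5% of all genes. Tap1 was the single gene whose 3 DKO arrays all lay below the 3 IL10KO arrays, 1 of 9, where 13.8% of all genes did. This comparison shares the IL10KO arrays with the one before, so both sets of values rest in part on the same samples. The intervals leave room for a fall of over 1 log2 unit in Tap1, Psmb8, Psmb9 and Nlrc5.

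DKO against SKO asks what the loss of interleukin-10 changed in mice without STING, and uses no WT array for its means. Here too 0 of 9 genes passed limma's test, as did 0.0451% of all genes, but 4 of 9 had an unadjusted p under 0.05, against 4.77% of all genes. These were Tap1, 1.03 ± 0.45 (interval 0.06 to 2.01, unadjusted p = 0.0392), Psmb8, 1.02 ± 0.37 (0.22 to 1.83, 0.0167), Psmb9, 0.94 ± 0.40 (0.07 to 1.80, 0.0358), and Psmb10, 0.57 ± 0.20 (0.13 to 1.01, 0.0144), with limma adjusted p from 0.93 to 0.998 over the 9 genes. Nlrc5 stood at 0.61 ± 0.30, Tap2 at 0.37, H2-K1 at 0.32, B2m at 0.27 and Tapbp at 0.05. The 3 DKO arrays lay above the 3 SKO arrays in 7 of 9 genes, all but B2m and Tapbp, where this held for 4.87% of all genes. The median was 0.57, beside -0.03 over all genes, and all 9 differences were above 0, against 43.5% of all genes.

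With arrays weighted by their estimated quality, 4 of 9 genes passed limma's test, all higher in DKO than in SKO, where 8.75% of all genes passed. They were Psmb10 (0.62, limma adjusted p = 0.0174), Psmb8 (1.05, 0.032), Nlrc5 (0.87, 0.035) and Psmb9 (1.06, 0.0443). That fit gave SKO replicate 1 a weight of 13.6 where the other arrays had 0.27 to 2.13, so it rested largely on that SKO array. No single omission gave a call in this comparison. The count of unadjusted p under 0.05 was 0 without DKO replicate 3 or SKO replicate 2, 2 without DKO replicate 2 or SKO replicate 1, and 5 without DKO replicate 1 or WT replicate 3. The share over all genes is not given for these omissions, so the counts show only how far the result moved. The spread in the test is shared by all genotypes, WT included, and the count was 6 of 9 without WT replicate 1, against 4.59% of all genes, and 7 of 9 with DKO and SKO fitted alone, against 5.82%. Without both WT arrays of high acinar signal, which leaves a single WT array, the median difference stayed at 0.57, since WT does not enter these means. With DKO and SKO alone Psmb9 differed by 0.94 ± 0.16 (limma adjusted p = 0.0716) and Tap1 by 1.03 ± 0.22 (0.17), and 0 of 9 passed, against 0.185% of all genes there and 0.0902% without WT replicate 1.

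SKO against WT asks what the loss of STING changed in mice with interleukin-10. All 9 differences were below 0, where 53.3% of all genes lay above 0, from -0.92 ± 0.45 for Tap1 to -0.18 ± 0.16 for Tapbp, with a median of -0.48 beside 0.01 over all genes. In 0 of 9 did the arrays not overlap, against 6.21% of all genes. None passed limma's test (adjusted p = 1 for each) and 0 of 9 had an unadjusted p under 0.05, where 0 of 22180 genes passed and 2.05% had such a p. The smallest unadjusted p was 0.0591, for Psmb9 (-0.83 ± 0.40). WT replicate 3, labelled WT, lay within or below the SKO range in all 9 genes. Without that library the median was -0.81 and 8 of 9 genes had an unadjusted p under 0.05, against 3.61% of all genes, with Tap1 at -1.51 ± 0.37 (limma adjusted p = 0.249), and 0 of 9 passed, against 0.248% of all genes. Without WT replicate 1 the median was -0.14, Tap1 stood at -0.22 and 0 of 9 had an unadjusted p under 0.05, so the size of the difference rested on which WT arrays were used.

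**Figure D3:**
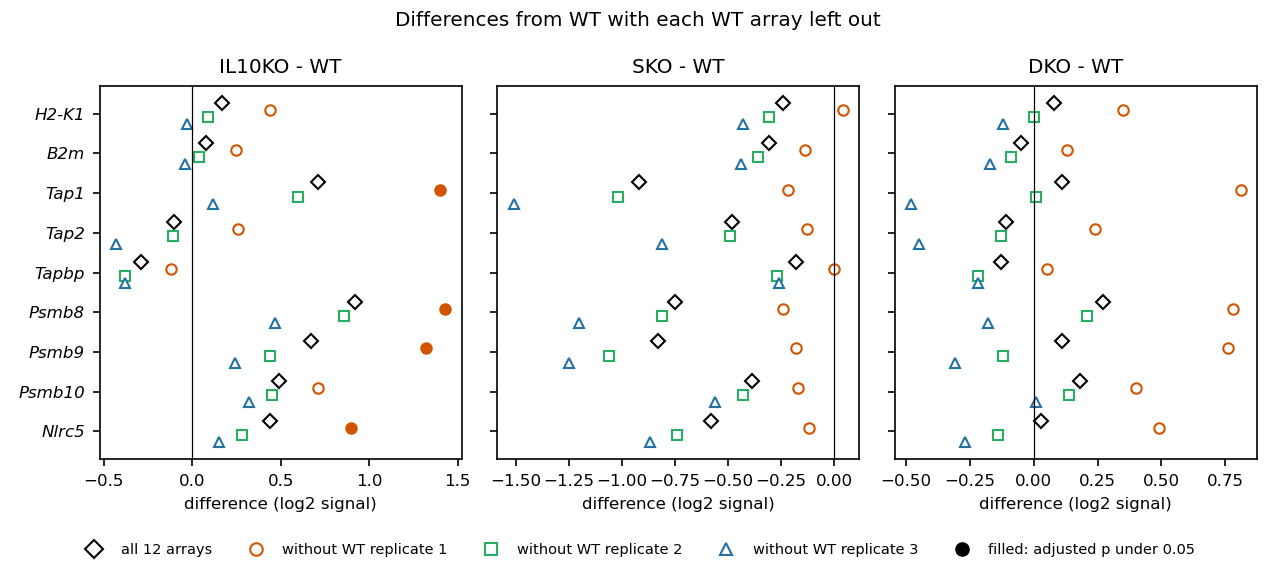
Difference from WT in log2 signal (horizontal axes) of the 9 genes in IL10KO, SKO and DKO, with all 12 arrays (diamonds) and with each WT array left out (circles, squares and triangles for WT replicates 1, 2 and 3), filled where limma's adjusted p was under 0.05. The filled circles are Tap1, Psmb8, Psmb9 and Nlrc5 in IL10KO without WT replicate 1, and leaving out WT replicate 1 or 3 moves most genes in opposite directions.

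DKO against WT showed the smallest differences, from -0.13 (Tapbp) to 0.27 (Psmb8), with a median of 0.08. No gene of the 9 passed limma's test or had an unadjusted p under 0.05, against 0.0451% and 2.92% of all genes. Of the 9 differences 6 were above 0, against 45.6% of all genes, and in 0 of 9 did the arrays not overlap, against 9.4%. The intervals were wide, -0.86 to 1.09 for Tap1 and -0.54 to 1.07 for Psmb8. Without WT replicate 1 the median was 0.40 and without WT replicate 3 it was -0.22, so the direction turned with the WT array left out.

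Whether the IL-10 effect differed between STING genotypes was tested as (DKO - SKO) - (IL10KO - WT). None of the 9 genes passed, against 0.645% of all genes, and 0 had an unadjusted p under 0.05, against 15.7%. All 9 differences were above 0, against 45.7% of all genes, and ran from 0.08 (Psmb10) to 0.46 (Tap2), with intervals of -1.05 to 1.70 for Tap1 and -1.04 to 1.24 for Psmb8. Quantile normalization turned H2-K1 (-0.02), Psmb8 (-0.08) and Psmb10 (-0.10) to the other side of 0, and omission of WT replicate 1 brought the median to -0.14.

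**Figure D4:**
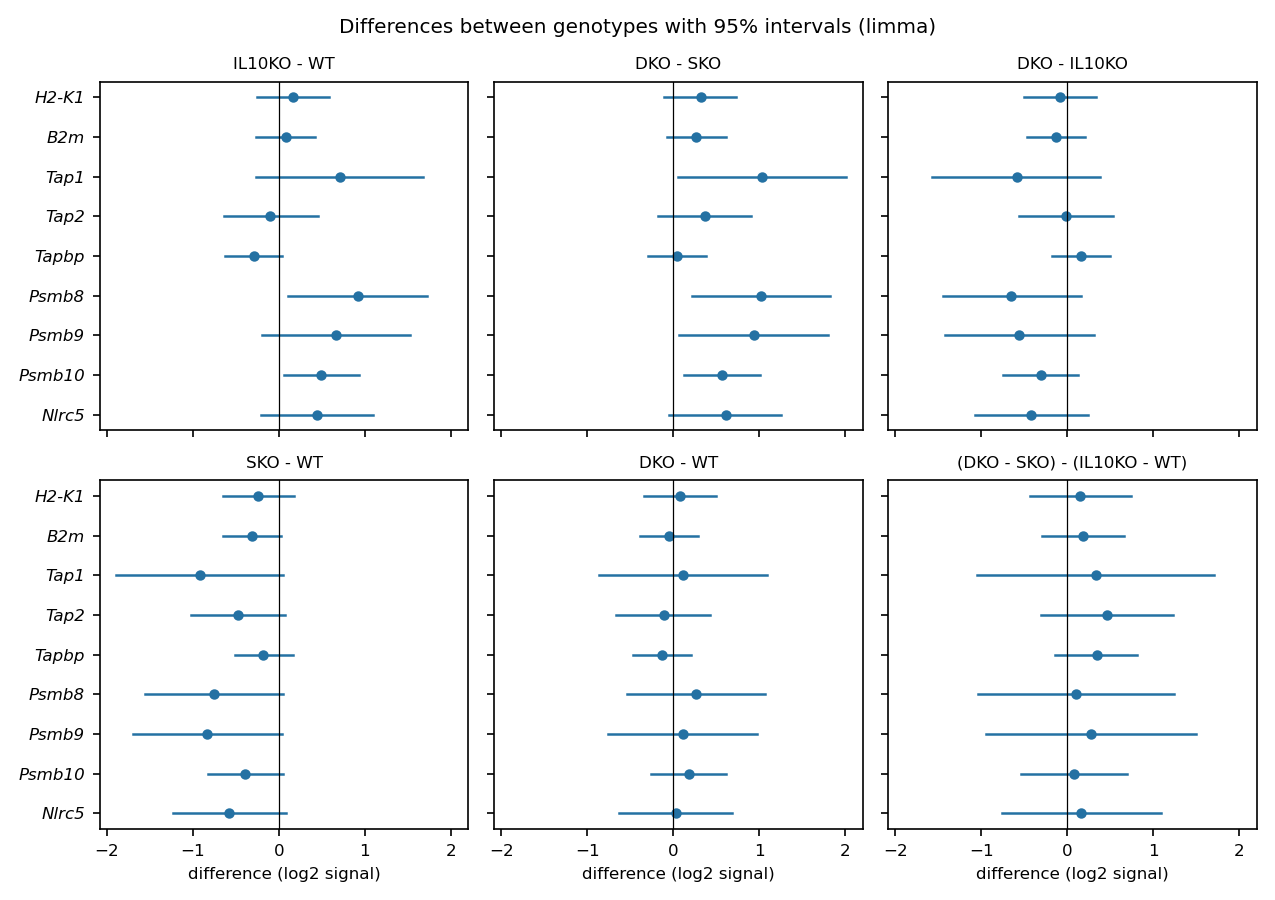
Difference in log2 signal (horizontal axes) with its 95% interval from limma for the 9 genes in each of the 6 comparisons. Psmb8 and Psmb10 have intervals above 0 in IL10KO against WT, and Tap1, Psmb8, Psmb9 and Psmb10 in DKO against SKO, before adjustment over all genes.

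The standard catalytic subunits, whose places in the proteasome the immunosubunits take, were read for comparison. Psmb5 read 7.83, 7.85 and 8.15 in WT replicates 1 to 3, where its counterpart Psmb8 went from 9.49 to 7.56. Psmb6 read 8.29, 8.09 and 8.46 and Psmb7 read 9.61, 9.55 and 9.51 in the same arrays. Like the 9 genes in the full fit, none of the 3 subunits passed limma's test in any comparison. Their differences were 0.25 to 0.46 between IL10KO and WT and -0.05 to 0.21 between DKO and SKO. In IL10KO against WT their median was 0.29, beside 0.44 for the 9 genes. There 1 of 3 had an unadjusted p under 0.05, beside 2 of 9 and 26.2% of all genes. Of the other core subunits, 10 of 11 measured, none passed in any comparison, with medians of 0.24 in IL10KO against WT and 0.13 in DKO against SKO. Among 5 activators and assembly factors none passed. Psme1, a subunit of the interferon-induced PA28 cap, differed by 0.33 in IL10KO against WT (limma adjusted p = 0.164). Psme2, the partner subunit, averaged 6.47 in WT, 6.58 in IL10KO, 6.77 in SKO and 6.35 in DKO, so it was lower in DKO than in SKO.

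Chaperones and trimming enzymes of the loading route, 9 of 10 measured, had 1 call. Thop1, a cytosolic peptidase that degrades proteasome products, was 6.02, 6 and 6.24 in WT and 6.83, 6.38 and 6.90 in IL10KO, and rose by 0.61 ± 0.17 (limma adjusted p = 0.0391). The call ended without any 1 of WT replicates 1, 2 and 3, IL10KO replicates 1 and 3, DKO replicates 2 and 3 and SKO replicate 1, reaching 0.126. Tapbpl, a tapasin homologue that edits peptides, read 8.14, 7.49 and 7.04 in WT and 6.81 to 7.44 in SKO, and did not pass in any comparison. The medians of the list lay between -0.15 and 0.35 over the 6 comparisons.

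Of the other class I and class I-like genes, 18 of 27 measured, none passed in any comparison, and their medians lay between -0.13 and 0.20. H2-Q1 read 7.03, 7.20 and 7.19 in DKO, against 6.01, 6.16 and 6.21 in SKO and 6.60, 6.27 and 6.66 in IL10KO. That DKO-SKO difference was 1.01 ± 0.19 (limma adjusted p = 0.139). H2-Q5 read 7.24, 5.19 and 4.77 in WT and 4.11 to 4.30 in SKO. H2-T23, the Qa-1 heavy chain that binds leader peptides of other class I chains, read 8.16, 8.31 and 8.65 in DKO and 6.94 to 7.98 in SKO. These 3 genes were named after their values were seen, and H2-Q genes are near-identical copies whose probes may share signal.

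Factors of the class I promoter and of interferon signalling, 21 of 23 measured, had few calls. Nfya, a subunit of the factor that binds the Y box, fell by 0.70 ± 0.16 in IL10KO against WT (limma adjusted p = 0.0161) and rose in DKO against IL10KO by 0.59 ± 0.16 (0.0446). Its arrays read 7.87, 8.31 and 8.01 in IL10KO and 8.41 to 8.96 in all other genotypes. The first call ended with the omission of any 1 of IL10KO replicates 1 and 3 and WT replicates 1 and 3, reaching 0.0603, and the other without any 1 array except IL10KO replicate 2, DKO replicate 3 or SKO replicate 2, reaching 0.184. Rfxank, a subunit of the RFX complex through which NLRC5 and CIITA reach promoters, read 7.44, 7.56 and 7.68 in IL10KO and 8.17 to 8.47 in DKO, and rose by 0.72 ± 0.16 (limma adjusted p = 0.0198). That call ended without IL10KO replicate 1 or DKO replicate 1 or 2, reaching 0.0968. Irf1, an activator of class I and TAP genes, read 8.92, 8.33 and 7.84 in WT and did not pass, with a difference of 0.64 ± 0.25 in DKO against SKO (limma adjusted p = 0.998). Interferon genes, 7 of 7 measured, had no call, and Ifng read 3.84 to 4.93 in all arrays, with 4.53 in WT replicate 1 and the highest value in IL10KO replicate 1. These Ifng values lie about or below the array medians of 4.8 to 5.02. Without detection calls, the lack of a call does not show that Ifng was unchanged.

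A list of receptors drawn up for class I recognition, 9 of 14 measured, had 2 calls, both between DKO and IL10KO, of which Pirb is the class I receptor. Lilrb4a, an inhibitory receptor of myeloid cells whose known ligands are not class I molecules, fell by 1.68 ± 0.38 (limma adjusted p = 0.022), from 8.07, 9.96 and 9.21 in IL10KO to 7.75, 7.32 and 7.10 in DKO. Pirb, the inhibitory receptor that binds class I on myeloid and B cells, fell by 0.72 ± 0.16 (limma adjusted p = 0.0174), from 5.63, 6.08 and 5.76 to 5.04, 5.06 and 5.21. The Lilrb4a call ended without IL10KO replicate 3, DKO replicate 2 or DKO replicate 3, reaching 0.0776, and that of Pirb without DKO replicate 1 or 2, reaching 0.0768. Neutrophil markers, 8 of 8 measured, averaged 6.20 to 7.86 in IL10KO and 4.54 to 4.78 in the other genotypes. All were lower in DKO than in IL10KO, and 7 of 8 passed limma's test, against 5.79% of all genes in either direction. The part of myeloid cell content in both receptor results was not tested. Cd8a, the coreceptor that grips class I, read 5.55, 4.58 and 4.50 in WT, 5.31, 4.86 and 5.53 in IL10KO, 4.42 to 4.86 in SKO and 4.60 to 4.78 in DKO, and did not pass in any comparison.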

How the data were processed

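Total RNA from mouse colon, 300 ng per array, was hybridised to 12 whole-transcript arrays, 3 per genotype, per the labels' protocols. The deposited values are log2 signals per probe set, which the authors computed in Expression Console 1.3.1.187 (Affymetrix), as the submitters' processing notes name it. How they corrected background and normalized, and on which build, is not stated here, and the log2 scale was read from the range of the values. Array medians lay between 4.8 and 5.02, no detection calls were used, and precision is limited by the number of arrays.

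Of 41345 probe sets, 23521 had 1 symbol in the platform annotation, 1814 several and 16010 none. The brightest probe set per gene gave 22180 genes. All arrays were fitted together in limma 3.58.1 (R 4.3.3) with a mean per genotype, 8 residual and 5.56 prior degrees of freedom, 2-sided tests and Benjamini-Hochberg adjustment over all genes. The fit was tested on 12 simulated arrays, where 200 of 22180 genes were changed in IL10KO. Against WT, 88 of 100 changes of log2 1 and 100 of 100 of log2 2 were recovered with 10 false calls. The simulated noise was independent between genes, with a single spread per gene for all genotypes. The class I genes were more variable in WT and most varied together, so these shares do not carry over to them. Replicate numbers follow sample order and pair nothing. The genes and lists were chosen with earlier results of these data known. Besides the members, the text names called genes of the pathway lists, the 5 most similar genes and, where stated, genes chosen after their values were seen, including related genes given for comparison. Endothelial and smooth muscle marker lists were computed, with mean signals of 6.38 to 6.91 for the first over all arrays and of 9.87 to 10.11 in IL10KO against 10.67 to 10.98 elsewhere for the other.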

Additional observations from a re-analysis of the deposited data

Results flagged for a closer look

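No class I or immunoproteasome gene was singled out, since groups of 3 arrays are too small to test for an outlying array and no member passed the test of a difference between STING genotypes. Among the marker genes 7 did, by limma's test of (DKO - SKO) - (IL10KO - WT), meaning that the IL-10 effect differed between mice with and without STING. Of these, 4 were neutrophil genes that were high in IL10KO alone: Retnlg (-4.52, limma adjusted p = 0.0122), S100a8 (-4.15, 0.0103), S100a9 (-2.94, 0.0147) and Stfa2l1 (-2.83, 0.0395). S100a8 averaged 6.95 ± 1.3 (SD, n = 3) in IL10KO and 2.55 to 2.88 in the other genotypes. The water channel Aqp8 (1.51, limma adjusted p = 0.0112) and the smooth muscle gene Synpo2 (1.3, 0.0212) were low in IL10KO alone. Clps, a pancreatic gene, differed by 3.51 (limma adjusted p = 0.0335). It was lowest in IL10KO, at 5.76 to 6.19, against 7.68 to 8.12 in DKO and 8.31 to 9.59 in SKO. In WT it averaged 10.47 ± 1.28 (SD, n = 3), and read 9.7, 11.94 and 9.77 in replicates 1 to 3. Acinar signal was high in WT replicates 1 and 2. Without both of these arrays, which leaves only WT replicate 3 with its knockout-range Sting1 signal, none of the 7 passed (limma adjusted p from 0.0667 for Clps to 0.255 for Stfa2l1). The differences there were 2.81 for Clps, -3.96 for Retnlg, -4.1 for S100a8, -3.13 for S100a9, -3.04 for Stfa2l1, 1.5 for Aqp8 and 1.41 for Synpo2. Retnlg, S100a8 and Aqp8 kept their call under each single omission, and the other 4 lost it under at least 1.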

How the results depend on the processing

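The count of called members was 0 in all 6 comparisons and stayed 0 in 129 of 132 recomputed counts over 22 settings. It was 4 in IL10KO against WT without WT replicate 1 (0 to 4 over single omissions) and 3 without WT replicates 1 and 2, where the only library left is labelled WT against its Sting1 signal. It was 4 in DKO against SKO with array weights, whose estimation stopped before it converged. Of 1188 recomputed member differences, 1111 kept direction and side of the threshold, 11 passed it and 66 changed sign, none of the last past the threshold. Much of this agreement was built in, so these totals do not measure stability. Omission of an array outside a comparison leaves its differences unchanged, and only Tapbp had a further probe set. Few or no genes at all passed in SKO against WT, DKO against WT and DKO against SKO in the full fit. The settings were scaling, a filter on the dimmest genes, other probe set rules, a fit of the compared genotypes alone, a trended prior, array weights and omissions. Omission of WT replicates 1 and 2, chosen after seeing the data, gave a sign opposite to the full fit to B2m -0.07, H2-K1 -0.24, Nlrc5 -0.42, Psmb10 -0.28, Psmb8 -0.80, Psmb9 -0.57, Tap1 -0.86 and Tap2 -0.21 in the difference of effects, B2m 0.20, Tap2 0.56 and Tapbp 0.04 in DKO against WT, H2-K1 0.15, Nlrc5 0.01, Psmb8 0.15, Psmb9 0.01, Tap1 0.26 and Tap2 0.19 in SKO against WT, Tap2 0.57 in IL10KO against WT. Joint omission of SKO replicate 2, IL10KO replicate 1 and WT replicate 3, also chosen after seeing the data, gave a sign opposite to the full fit to B2m -0.05 and H2-K1 -0.04 in IL10KO against WT, H2-K1 -0.12, Nlrc5 -0.27, Psmb8 -0.18, Psmb9 -0.31 and Tap1 -0.48 in DKO against WT, Tap2 0.06 in DKO against IL10KO. Quantile normalization gave a sign opposite to the full fit to H2-K1 -0.02, Psmb10 -0.10 and Psmb8 -0.08 in the difference of effects, Tap2 0.01 in IL10KO against WT, Tapbp -0.01 in DKO against IL10KO. Centring each array on its median gave a sign opposite to the full fit to Tap2 0.03 in DKO against IL10KO. Array weights gave a sign opposite to the full fit to Tap2 0.03 in DKO against IL10KO. Over single omissions, values in DKO against WT ran from -0.17 to 0.13 for B2m, from -0.12 to 0.35 for H2-K1, from -0.27 to 0.49 for Nlrc5, from -0.18 to 0.78 for Psmb8, from -0.31 to 0.76 for Psmb9, from -0.48 to 0.81 for Tap1, from -0.45 to 0.24 for Tap2 and from -0.22 to 0.05 for Tapbp and passed through 0. Over single omissions, values in IL10KO against WT ran from -0.04 to 0.25 for B2m, from -0.03 to 0.44 for H2-K1 and from -0.43 to 0.26 for Tap2 and passed through 0. Over single omissions, values in the difference of effects ran from -0.12 to 0.35 for H2-K1, from -0.30 to 0.46 for Nlrc5, from -0.14 to 0.25 for Psmb10, from -0.41 to 0.56 for Psmb8, from -0.38 to 0.69 for Psmb9 and from -0.37 to 0.92 for Tap1 and passed through 0. Over single omissions, values in SKO against WT ran from -0.43 to 0.04 for H2-K1 and passed through 0. Over single omissions, values in DKO against IL10KO ran from -0.11 to 0.06 for Tap2 and passed through 0. Over single omissions, values in DKO against SKO ran from -0.01 to 0.08 for Tapbp and passed through 0. Counts over all genes ranged from 232 to 3070 in IL10KO against WT (1805 in the full fit), 425 to 2361 in DKO against IL10KO (1284), 5 to 78 in DKO against WT (10), 0 to 55 in SKO against WT (0), 5 to 1940 in DKO against SKO (10) and 16 to 736 for the difference of effects (143). The cause of these changes was not tested. No paired analysis was possible because the labels give no shared replicate numbers.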
